A study of Mus musculus with 51 samples.

Results

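The mRNA of *Smad4* KO cells was compared with that of WT cells of the same line after 2 days of differentiation with Bmp4. Genes were examined when their FPKM, the fragments per kilobase of transcript scaled to sequencing depth, stood above 1 in either column. This held for 10999 of the 24538 genes in the table. The size of each difference is the log2 ratio of KO to WT after adding 0.1 to both FPKM values, and a gene was counted as lower below −1 and as higher above 1, that is beyond a 2-fold difference. By this rule a gene above 1 FPKM in WT only is more likely to count as lower, and one in KO only as higher.

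The study followed mouse embryonic stem cells (mESCs) as Bmp4 turned them into cardiac mesoderm, and it asked which genes the SMAD proteins control on the way. The comparison described here uses 2 of its 51 samples, of which 18 hold RNA-seq data. Both lines are 129S/SvEvxC57BL/6 mESCs, aggregated in hanging drops without feeder cells and then kept in medium with Bmp4 at 20 ng/ml until day 2. The WT cells carry conditional alleles of *Smad4*, whose first exon lies between loxP sites. The KO cells come from these conditional cells by transient Cre expression and are homozygous for loss of that exon. They were expanded from single cells, so a trait of the KO clone cannot be told apart from an effect of the mutation. The labels give 1 sample per line and day, and the table holds a single value per gene and line, which the study describes as an average of replicates. No difference below therefore has a replicate check, an error between replicates or a p-value.

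Smad4 is the shared partner of the SMAD proteins that carry BMP and Nodal signals into the nucleus. BMP receptors phosphorylate Smad1, Smad5 and Smad9, Nodal and activin receptors phosphorylate Smad2 and Smad3, and both groups bind DNA together with Smad4. In the gastrulating mouse epiblast these signals act with WNT and FGF ligands to start the primitive streak, where *Eomes* and *T* mark the first mesoderm, while cells that receive little of either signal tend towards the neural plate.

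*Smad4* itself stood at 39.3 FPKM in WT and at 46.8 in KO, a log2 ratio of 0.25. On day 1 *Smad4* was at 33.8 (WT) and 39.4 (KO), and in F1G4 WT cells, the study's other wild-type mESC line, it was at 33.5 on day 2. The value is summed over the whole gene, so the loss of the first exon cannot be read from it and it does not check the labels. Low values show what a single fragment was worth. In genes with a single curated RefSeq mRNA, FPKM times transcript length came within 0.1 of a whole multiple of 1 value for 93.9% of 1288 low values in WT and 94.3% of 1243 in KO. By these values 1 fragment over 1 kb of transcript was worth 0.0284 FPKM in WT and 0.0289 in KO, so that the columns rest on a similar depth. For such genes fragments were recovered from FPKM, and 95% exact (Clopper-Pearson) intervals of the log2 ratio of fragments, without the added 0.1, are given where they matter. They cover counting error only. In the F1G4 WT columns, whose labels give 2 samples per stage, 45.5% to 49.8% of low values came within 0.1 of a whole multiple. How many libraries stand behind each column was not tested. Pairs of values below are FPKM in WT first and in KO second, unless stated otherwise.

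Across the 10999 genes the median log2 ratio was −0.01, and the middle part of the distribution, between its quartiles, ran from −0.17 to 0.17. There were 335 genes lower in KO (3.05%) and 257 higher (2.34%). Of the lower genes 109 differed more than 4-fold and 43 more than 8-fold, and of the higher genes 43 and 21. F1G4 WT cells and the WT of the *Smad4* line, compared on day 2, differed more than 2-fold in 382 of 10983 of these genes (3.48%), with 1.57% higher and 1.91% lower in the *Smad4* line. The genes were chosen by their level in the *Smad4* line, and F1G4 is a separate line. The share thus does not measure the spread between clones or libraries of the *Smad4* line. The medians of the autosomes and the X chromosome lay between −0.04 and 0.01.

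**Figure D1:**
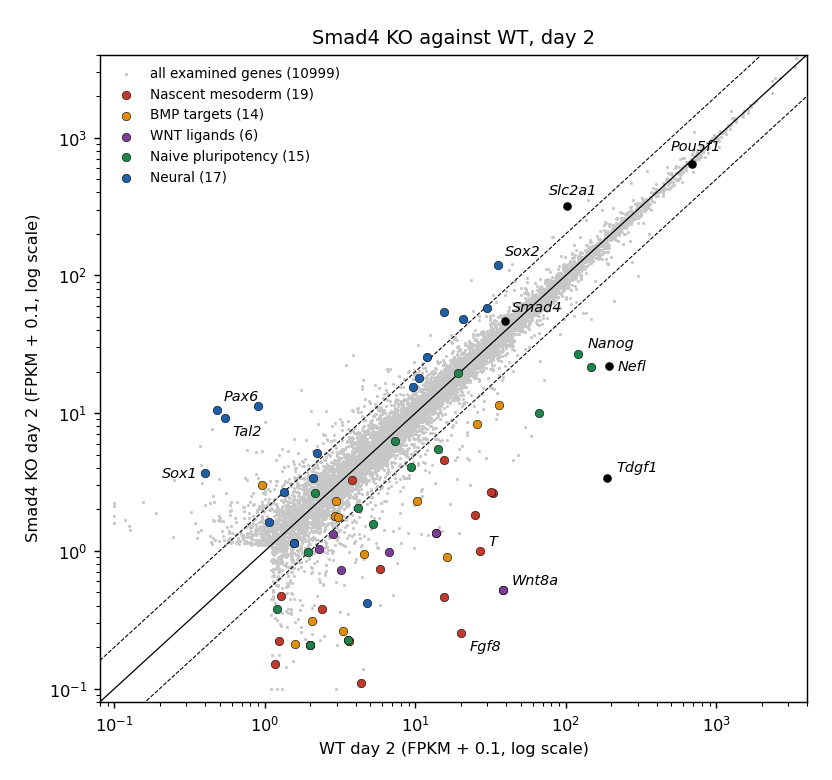
FPKM + 0.1 of each of the 10999 examined genes in WT (x axis) and *Smad4* KO cells (y axis) on day 2, both on log scales, with 1 point per gene and members of 5 lists in colour (the number examined in brackets, a gene in several lists taking the last colour). The solid line marks equal values and the dashed lines 2-fold differences. Of nascent mesoderm genes 18 of 19, of WNT ligands 6 of 6 and of BMP targets 10 of 14 lie below the lower dashed line, and *Pax6*, *Tal2* and *Sox1* far above the upper one.

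The upstream sequences of 5 of the genes lower in KO are shown because these genes stand for the pathways described below: a BMP target, a Nodal ligand, its co-receptor, a WNT target and a T-box gene of the streak. Each line gives the 250 bases before the RefSeq start (GRCm38.p6, 5′ to 3′ on the strand of the gene). Capitals mark GGCGCC, a motif of Smad1 and Smad5, CTTTGAT and CTTTGAA, forms of the TCF/LEF motif of WNT signalling, AGGTGT, the core of T-box motifs, and AATCCACA, a motif of the Nodal partner Foxh1, each searched on both strands. The windows lie at chr12:25096093-25096342 (minus strand), chr10:61417722-61417971 (plus), chr9:110946159-110946408 (minus), chr2:70474673-70474922 (plus) and chr17:8434173-8434422 (plus).
Id2: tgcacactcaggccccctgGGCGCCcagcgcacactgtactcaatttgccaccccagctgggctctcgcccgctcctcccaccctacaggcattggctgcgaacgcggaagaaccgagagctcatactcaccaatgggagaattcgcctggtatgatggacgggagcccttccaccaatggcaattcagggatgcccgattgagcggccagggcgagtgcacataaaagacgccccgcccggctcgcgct
Nodal: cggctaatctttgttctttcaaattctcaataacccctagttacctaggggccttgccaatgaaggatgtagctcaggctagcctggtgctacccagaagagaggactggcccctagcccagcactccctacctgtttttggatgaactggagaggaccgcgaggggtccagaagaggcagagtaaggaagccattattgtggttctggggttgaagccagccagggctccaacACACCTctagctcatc
Tdgf1: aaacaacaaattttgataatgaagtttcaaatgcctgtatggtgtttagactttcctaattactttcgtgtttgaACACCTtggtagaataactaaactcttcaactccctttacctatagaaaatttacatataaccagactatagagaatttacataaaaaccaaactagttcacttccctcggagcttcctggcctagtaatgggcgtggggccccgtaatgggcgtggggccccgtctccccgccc
Sp5: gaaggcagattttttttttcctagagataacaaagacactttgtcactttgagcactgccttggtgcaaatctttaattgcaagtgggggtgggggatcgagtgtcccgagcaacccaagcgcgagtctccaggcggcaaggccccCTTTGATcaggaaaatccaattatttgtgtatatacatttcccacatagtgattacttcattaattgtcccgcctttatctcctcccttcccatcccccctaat
T: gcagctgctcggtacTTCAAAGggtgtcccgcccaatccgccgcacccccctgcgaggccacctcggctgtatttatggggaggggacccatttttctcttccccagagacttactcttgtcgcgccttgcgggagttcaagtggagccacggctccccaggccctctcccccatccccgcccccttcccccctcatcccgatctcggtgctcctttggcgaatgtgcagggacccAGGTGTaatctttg
In the *Id2* window GGCGCC begins 231 bases before the start. *Sp5* holds CTTTGAT 104 bases before it, *T* holds CTTTGAA on the other strand 235 bases and AGGTGT 14 bases before it, and *Nodal* and *Tdgf1* hold AGGTGT on the other strand. Over all 32851 promoter windows in the table, 9.59% held GGCGCC, 3.21% CTTTGAT, 4.46% CTTTGAA, 11.8% AGGTGT and 0.718% AATCCACA. Over the 314 windows found for 233 of the 335 lower genes the shares were 15.6%, 2.87%, 5.41%, 9.87% and 0.318%, and over the 11051 windows of examined genes 17.5%, 2.1%, 2.89%, 9.29% and 0.398%. A match is a description of the letters and not evidence of binding.

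Among the targets of BMP signalling, 10 of 14 examined genes were lower in KO and 1 was higher, with a median log2 ratio of −2.22 beside −0.01 for all examined genes. Some, such as *Id1*, *Msx1* and *Msx2*, passed the minimum through their WT value only, which favours a count as lower. With no minimum 17 of the 26 genes of the list were lower and 1 higher, beside 712 lower and 576 higher of all 24538 genes. *Id1*, a helix-loop-helix protein that blocks differentiation factors and the classical BMP target, stood at 16.1 FPKM in WT and 0.806 in KO (log2 −4.16). On day 1 the level of *Id1* in WT had been higher, at 77.1, with 2.14 in KO. Its relatives differed less, as *Id2* stood at 35.9 and 11.4 (−1.64, interval −1.80 to −1.51) and *Id3* at 25.4 and 8.23 (−1.61, interval −1.83 to −1.43). *Id4* stood at 2.81 and 1.69, inside the 2-fold line. The 4 Id genes were thus all below WT, but to different degrees.

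The homeobox genes *Msx1* and *Msx2*, which BMP induces in many tissues, were also lower. *Msx2* stood at 3.22 FPKM in WT and 0.161 in KO, or 245 and 12 fragments (−3.67, interval −5.30 to −3.49), and *Msx1* at 1.96 and 0.21 (−2.73). *Gata2*, a zinc finger factor of blood and trophoblast, stood at 1.49 and 0.111, and *Tfap2c*, a factor of germ cell and surface ectoderm precursors, at 4.47 and 0.854. *Tbx3* and *Hand1*, factors of the heart and of extraembryonic mesoderm, had log2 ratios of −3.26 and −4.02. The feedback inhibitors of the pathway differed to unequal degrees. *Smad7* stood at 10.2 and 2.18 (−2.17, interval −2.40 to −2.05), *Smad6* at 2.98 and 1.68 (−0.80), and *Bambi*, a decoy receptor, at 2.88 and 2.22 (−0.36). *Hey1*, a repressor also driven by Notch, was the only member above the line, at 0.85 and 2.93 (1.67). Against F1G4 WT cells 0 of the BMP targets were higher, so *Hey1* did not stay above the line there.

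The receptors and SMAD proteins of both pathways differed little. *Bmpr1a*, the main type I BMP receptor of the epiblast, stood at 37.9 FPKM in WT and 34.9 in KO (log2 −0.12), *Bmpr2* at 5.39 and 3.66 (−0.54), and the activin receptors *Acvr2a*, *Acvr2b* and *Acvr1b* had log2 ratios of 0.07, 0.25 and 0.28. *Smad1*, *Smad5*, *Smad2* and *Smad3* had log2 ratios of −0.26, −0.26, −0.21 and 0.13. *Foxh1*, the DNA-binding partner of Smad2, stood at 33.8 and 38.8, and the corepressors *Ski* and *Skil* had ratios of 0.00 and 0.24. In the list of BMP ligands, receptors and antagonists 2 of 9 examined genes were lower and 0 higher. One was *Fst*, follistatin, which binds activin and BMP proteins, at 31.5 in WT and 2.57 in KO, and the other *Tdgf1*, described next. *Bmp4* and *Bmp2* were below 1 FPKM in both columns, and Bmp4 protein was supplied in the medium.

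The ligand, the co-receptor and the feedback genes of the Nodal pathway were low in KO. In that list 6 of 17 examined genes were lower and 0 higher, and its median was −0.00, as the receptors and transcriptional partners just described make up most of the rest. *Nodal* stood at 32.4 FPKM in WT and 2.53 in KO, a 12.4-fold difference (log2 −3.63, interval −3.91 to −3.46). *Tdgf1*, which codes for Cripto, the co-receptor that Nodal needs, stood at 187 and 3.3, a 55.0-fold difference, with 12702 fragments in WT and 220 in KO. *Lefty1* (12.1 and 1.2) and *Lefty2* (19.3 and 1.24), secreted antagonists that Nodal itself induces, had log2 ratios of −3.23 and −3.85. *Gsc*, the organizer gene goosecoid, stood at 1.14 and 0.123 with only 47 and 5 fragments. The Nodal convertases *Furin* and *Pcsk6* had log2 ratios of 0.02 and −0.61.

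All 6 WNT ligands examined were lower in KO, with a median log2 ratio of −2.45, and the other 13 of the list stayed below 1 FPKM. *Wnt8a*, *Wnt5b*, *Wnt6* and *Wnt7b* passed the minimum through their WT value only, which favours a count as lower. With no minimum 9 of the 19 ligands were lower and 0 higher, beside 712 lower of all 24538 genes. *Wnt8a* stood at 37.8 in WT and 0.419 in KO, 2024 and 22 fragments, and *Wnt3*, the ligand needed to start the streak, at 13.7 and 1.25 (−3.35, interval −3.71 to −3.19). *Wnt5b* stood at 6.6 and 0.882, *Wnt6* at 3.09 and 0.63, *Wnt7b* at 2.2 and 0.93, and *Wnt4* at 2.73 and 1.23. *Wnt4* lay nearest to the line, with a log2 ratio of −1.09 and an interval of −1.42 to −0.88 that includes values inside the 2-fold line.

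Of the WNT targets and modulators, 8 of 20 examined genes were lower and 1 higher, and the median was −0.39. *Axin2*, a feedback inhibitor and common readout of β-catenin activity, stood at 9.72 FPKM in WT and 0.945 in KO (−3.23). *Sp5*, a zinc finger factor induced directly by β-catenin, stood at 3.45 and 0.124 (−3.99, 255 and 9 fragments), *Tnfrsf19* at 22.9 and 2.9, and *Rspo3*, a secreted enhancer of WNT signalling, at 2.31 and 0.278. *Sp8*, *Frzb*, *Myc* and *Nkd1* had log2 ratios between −1.46 and −1.11. The general components stayed close to WT, as *Ctnnb1*, which codes for β-catenin, stood at 322 and 366 and *Ccnd1* at 80.3 and 77.2. *Lef1* and *Tcf7l1*, DNA-binding partners of β-catenin, were nearer to the upper line at 0.94 and 0.91, while *Tcf7* was at −0.37. *Sfrp1*, a secreted WNT inhibitor, was the member above the line, at 2.48 and 6.32 (1.32).

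Of the FGF ligands, receptors and feedback genes, 3 of 19 were lower and 1 higher, with a median of −0.01. *Fgf8*, the FGF of the primitive streak, had the lowest log2 ratio among genes with at least 5 FPKM in one column, −6.29, with 19.8 in WT and 0.154 in KO. *Fgf17*, of the same subfamily, stood at 2.36 and 0.875. *Fgf5*, the FGF of the primed epiblast, stood at 23.9 and 37.7 (0.65), after 3.4 and 17.9 on day 1, and *Fgfr2* at 6.19 and 16.3 (1.38). The feedback genes that report ERK activity showed little of this, as *Dusp6* stood at 37.3 and 35.0, *Spry4* at 5.02 and 5.27, *Etv5* at 26.1 and 27.8 and *Spry2* at 16.0 and 12.1.

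**Figure D2:**
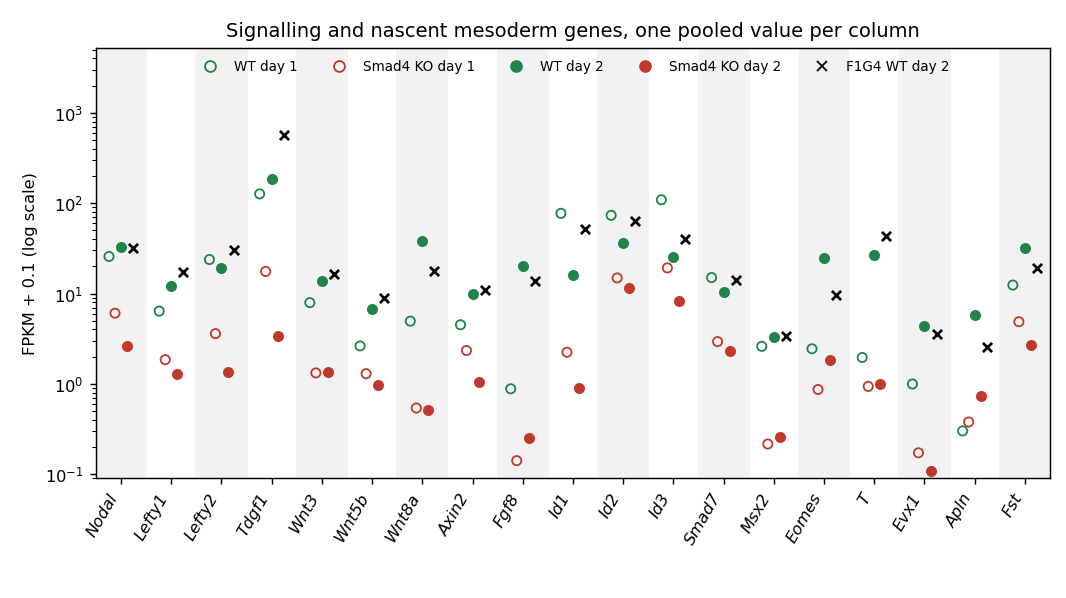
FPKM + 0.1 (log scale) of 19 signalling and nascent mesoderm genes, 1 pooled value per column, in WT (green) and *Smad4* KO cells (red) on day 1 (open) and day 2 (filled) and in F1G4 WT cells on day 2 (crosses). For each of the 19 genes the KO value on day 2 lies below both WT values of day 2. *Nodal*, *Tdgf1*, *Wnt3* and *Id1* were already low in KO on day 1, when *Fgf8*, *T* and *Eomes* had not yet reached their day 2 level in WT. *Fgf8*, *T* and *Eomes* were below WT in KO on day 1 too, with log2 ratios of −2.64, −1.06 and −1.50.

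Nascent mesoderm genes had a median of −3.56, and 18 of 19 examined genes were lower in KO with 0 higher. Some, such as *T*, *Evx1* and *Mixl1*, passed the minimum through their WT value only, which favours a count as lower. With no minimum 21 of the 40 genes of the list were lower and 0 higher, beside 712 lower of all 24538 genes. *Eomes* and *T*, T-box factors of the streak, stood at 24.8 FPKM in WT and 1.73 in KO (−3.76) and at 26.6 and 0.891 (−4.75, 1918 and 63 fragments). *Evx1*, a homeobox gene of the posterior streak, stood at 4.25 and 0.0101. For *Evx1* this is 431 fragments against 1, and the counting interval of the log2 ratio of fragments ran from −14.03 to −6.24. Its antisense neighbour *Evx1os*, named after its value was seen, stood at 4.37 and 0.0397, and whether the counting used strand is not stated in the sources used here. *Mixl1*, a homeobox gene of early mesendoderm, was just above the minimum at 1.07 in WT and stood at 0.0506 in KO, 86 and 4 fragments. *Apln*, the ligand of the apelin receptor, stood at 5.75 and 0.643, and *Amot*, angiomotin, at 15.5 and 4.44. Of the list, *Isl1*, a factor of the second heart field, did not differ 2-fold, at 3.66 and 3.15. In F1G4 WT cells *Isl1* stood at 0.111 on the same day.

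Genes of later mesoderm and of other lineages were mostly below 1 FPKM. Of 20 cardiac and lateral mesoderm genes 2 were examined, of 14 paraxial genes 3, of 16 endoderm genes 3 and of 22 Hox genes 0. *Mesp1*, *Gata4* and *Kdr*, early markers of cardiac and vascular progenitors, stood at or below 0.208 in both columns. *Trh*, thyrotropin-releasing hormone, an early endoderm gene, stood at 71.3 and 17.1 (−2.05), whereas *Sox17*, *Foxa2*, *Hhex* and *Cer1* did not pass the minimum. In the list of trophoblast and amnion genes 5 of 10 were lower, among them *Krt7*, a keratin, at 9.02 and 3.29, while *Elf5* and *Cga* were listed at 0 in both columns.

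Lists of 18 activated and 5 repressed genes, taken from the study's text, lay beyond the 2-fold line in the named direction with all their members, at medians of −3.70 and 3.19. These genes were chosen on the same samples, so the counts are not independent evidence of the direction. Of the activated genes not described above, *Irf1*, an interferon regulatory factor, stood at 19.4 and 5.35 and *Foxb1*, a forkhead gene, at 1.43 and 0.0582.

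Neural genes showed the opposite direction. Of 17 examined genes 9 were higher in KO and 1 was lower, and their median log2 ratio was 1.09. *Pax6*, a paired homeobox factor of the forebrain and eye, stood at 0.378 FPKM in WT and 10.4 in KO (4.46). *Tal2*, a helix-loop-helix factor of the midbrain, stood at 0.447 and 9.06 (4.07, interval 3.91 to 4.79), and *Sox1*, the earliest marker restricted to the neural plate, at 0.302 and 3.58 (3.19). *Slc35d3*, a nucleotide sugar transporter gene, stood at 0.799 and 11.2. In WT *Pax6*, *Tal2*, *Sox1* and *Slc35d3* were all below 1 FPKM, and in KO they ranged from 3.58 to 11.2. They thus passed the minimum through KO only, which favours a count as higher. With no minimum 11 of the 40 genes of the neural list were higher and 1 lower, beside 576 higher and 712 lower of all 24538 genes.

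Several genes shared by neural cells and the epiblast were also higher but had been expressed in WT. *Sox2* stood at 35.2 and 120, *Otx2*, a homeobox factor of the anterior epiblast and forebrain, at 15.3 and 54.2, and *Sox3* at 2.13 and 5.0. *Zic2* and *Zic5*, zinc finger factors of the neural plate, stood at 20.7 and 48.4 and at 11.9 and 25.3. Of 3 examined Zic genes 2 were higher and 1 was lower. *Nes*, the intermediate filament nestin, stood at 30.0 and 58.1 (0.95), *Cdh2*, N-cadherin, at 1.25 and 2.58 (0.99) and *Tubb3*, a neuronal tubulin, at 10.4 and 17.8 (0.77), just inside the line. *Hes5* and *Lhx5*, 2 further neural markers, stayed at or below 0.364. *Nrcam*, a neural adhesion molecule, was the single member below the line at 4.65 and 0.318, and in F1G4 WT cells it stood at 0.211 on day 1 and at 3.41 on day 2.

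Pluripotency genes divided into groups. Of the naive genes, which mark mESCs before they prime, 10 of 15 were lower in KO and 0 higher, with a median of −1.37. *Nanog* stood at 121 FPKM in WT and 26.8 in KO (−2.17), *Dppa5a* at 147 and 21.4, *Dppa3* at 65.7 and 9.87 and *Dppa2* at 5.11 and 1.48. *Zfp42*, which codes for Rex1, stood at 14.0 and 5.38, *Esrrb* at 1.11 and 0.276 and *Klf5* at 9.3 and 3.99. *Stat3* was at −1.02 and *Tfcp2l1* at −0.98, on either side of the line, and *Dppa4* stood at 19.2 and 19.3. *Sp5* and *Tbx3*, described above, belong to this list as well, so it overlaps with the mesoderm genes.

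The core factor *Pou5f1*, which codes for Oct4, stood at 692 and 642 (−0.11), *Lin28a* at 269 and 313 and *Sall4* at 34.3 and 41.9. Of the 10 core genes 2 were lower, *Tdgf1* and *Nanog*, and 1 higher, *Sox2*. Formative and primed epiblast genes leaned upwards, with 7 of 24 higher, 2 lower and a median of 0.67. Besides the neural genes already named, *Foxd3* stood at 2.15 and 8.25 (1.89), *Sox4* at 7.01 and 16.3 and *Sall2* at 8.85 and 19.9. The methyltransferase *Dnmt3b* stood at 269 and 467 (0.80), while *Dnmt3l*, its inactive partner, stood at 21.9 and 4.59 (−2.23). Within the pluripotent state the markers thus separated, with *Pou5f1* level, *Sox2* and *Otx2* high, and *Nanog* and *Dppa3* low in KO.

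**Figure D3:**
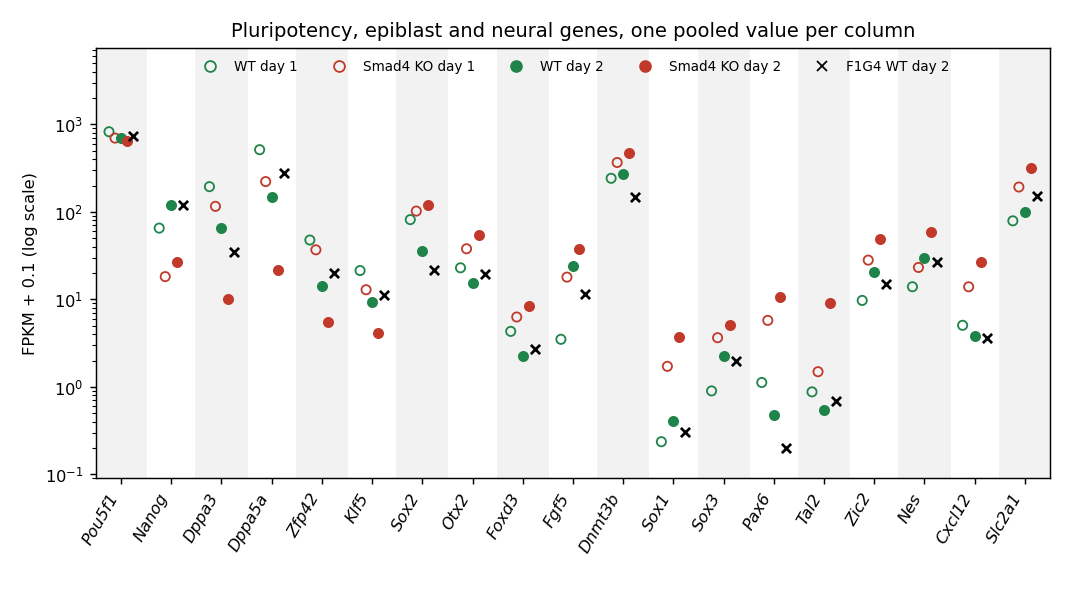
FPKM + 0.1 (log scale) of 19 pluripotency, epiblast, neural and other genes, 1 pooled value per column, in WT (green) and *Smad4* KO cells (red) on day 1 (open) and day 2 (filled) and in F1G4 WT cells on day 2 (crosses). *Pou5f1* stands near the same height in WT and KO on day 2, *Nanog*, *Dppa3* and *Dppa5a* lie lower in KO on day 2, and *Sox2*, *Otx2*, *Sox1*, *Pax6* and *Tal2* higher.

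Lists of structure and of general cell functions held fewer genes past the line. Of 25 genes of the epithelial-mesenchymal transition 1 was lower, *Mmp14*, a membrane matrix metalloprotease, at 14.7 and 5.1, and 0 were higher, whereas against F1G4 WT cells 0 were lower and 4 higher. *Cdh1*, E-cadherin, stood at 99.8 and 118, *Epcam* at 264 and 291 and *Vim*, vimentin, at 44.8 and 78.5 (0.81). Of 22 collagens, laminins and integrins 0 crossed the line in either direction, with log2 ratios from −0.80 to 0.95. Of 14 cell cycle genes 1 was lower, *Ccnd2*, at 6.48 and 2.78. Of 12 Notch pathway genes 1 was higher, *Hey1*, and the other 11 had ratios between −0.95 and 0.63. Against F1G4 WT cells 0 of the 12 were higher.

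Axon guidance and ephrin genes, which also act in cell sorting, had 7 of 23 examined members lower and 1 higher, with a median of −0.27. This balance was not kept against F1G4 WT cells, where 4 were lower and 5 higher, nor on day 1, where 1 was lower and 1 higher, and with a pseudocount of 1 in place of 0.1 there were 3 lower. *Epha1* (22.1 and 8.56) and *Epha2* (21.9 and 7.24), ephrin receptors, had log2 ratios of −1.36 and −1.58, and the ephrins *Efna1*, *Efna3* and *Efnb1* ratios of −1.22, −1.13 and −1.55. *Ntn1*, netrin, stood at 1.46 and 0.348. The semaphorin *Sema3c* was higher, at 5.62 and 15.2 (1.42).

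Of 16 genes of the interferon response and antigen processing 6 were lower and 0 higher. *Psmb8*, a subunit of the immunoproteasome, stood at 5.55 and 0.947, *Tapbp* at 5.88 and 1.85, and the membrane proteins *Ifitm1* and *Ifitm3*, which also mark germ cell precursors, at 10.8 and 2.64 and at 34.3 and 8.93. *Ifitm2*, *B2m* and *H2-K1* stayed inside the line, and reads can be shared among the similar Ifitm genes. In F1G4 WT cells *Psmb8* stood at 1.27 on day 1, 5.91 on day 2 and 68.0 on day 3. Of 11 germ cell genes 5 were lower, and these were *T*, *Dppa3*, *Tfap2c*, *Ifitm1* and *Ifitm3*, all of which other lists hold too.

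Among glucose transport and hypoxia genes a pair was past the line. *Slc2a1*, the glucose transporter Glut1, stood at 101 and 320 (1.66) and *Bnip3*, a mitophagy receptor, at 12.4 and 36.8 (1.56), so that 2 of 19 genes were higher, 0 lower and the median was 0.33. Against F1G4 WT cells 1 was higher and 2 were lower, and 4 of the 19 differed beyond the line between the WT lines. *Ldha* stood at 709 and 1095 and *Pgk1* at 206 and 306, while *Slc2a3*, the other main glucose transporter, stood at 338 and 306. Of 11 immediate early genes 2 were lower, *Atf3* and *Myc*, with a median of −0.61.

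Imprinted genes, whose expression in mESCs often varies between clones, split. Of 21 genes 5 were lower and 2 higher. *Grb10*, an adaptor that limits growth factor signals, stood at 58.2 and 6.76 (−3.09), *Peg10* at 53.3 and 7.81, *Igf2* at 8.87 and 1.24, *H19* at 208 and 64.7 and *Peg3* at 44.1 and 20.2. *Snrpn* stood at 141 and 353 and *Ndn* at 6.72 and 20.7. On day 1 *Grb10* (36.5 and 7.15), *Peg10* (43.3 and 11.9) and *Snrpn* (136 and 323) already stood apart in the same direction. Whether these belong to the clone or to the loss of *Smad4* was not tested and cannot be told apart with 1 clone.

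**Figure D4:**
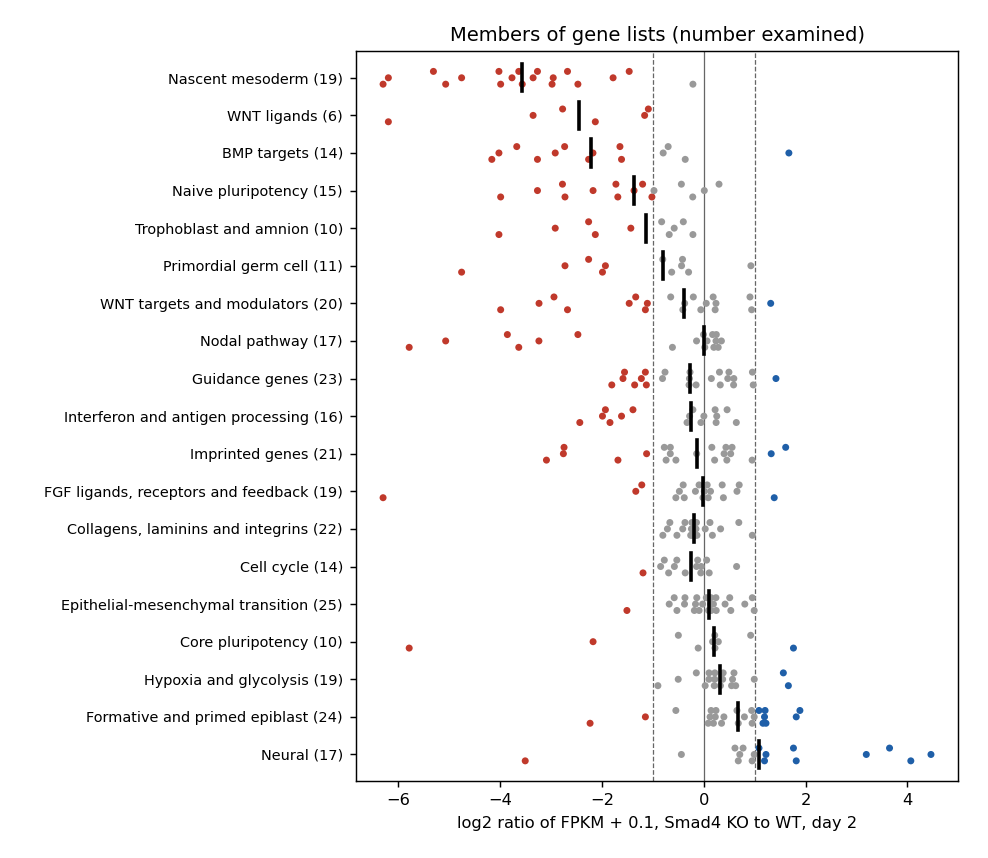
Log2 ratio of FPKM + 0.1, *Smad4* KO to WT on day 2 (x axis), for the examined members of 19 gene lists, with the number examined in brackets. Each point is 1 gene, red below −1 and blue above 1, the black bar is the median of the list, and the dashed lines mark 2-fold differences. The median runs from −3.56 for nascent mesoderm to 1.09 for neural genes.

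Among all genes with at least 5 FPKM in either column, the 15 lowest log2 ratios ran from −6.29 (*Fgf8*) to −3.35 (*Wnt3*) and the 15 highest from 4.46 (*Pax6*) to 2.05 (*Dtna*). The lowest included *Fgf8*, *Wnt8a*, *Tdgf1*, *T*, *Id1*, *Nkx1-2*, *Lefty2*, *Rtl8c*, *Eomes*, *Nodal*, *Fst*, *Irgm1*, *Nt5e* and *Wnt3*. Of those outside the lists, *Nkx1-2*, a homeobox gene of the posterior epiblast, stood at 6.97 and 0.38, *Irgm1*, an interferon-inducible GTPase, at 14.9 and 1.28, and *Nt5e*, the surface enzyme CD73, at 14.4 and 1.24. *Rtl8c*, an X-linked gene derived from a retrotransposon, stood at 5.7 and 0.304.

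The highest were *Pax6*, *Spon1*, *Tal2*, *Slc17a6*, *Slc35d3*, *Igfbp5*, *Snora26*, *Skida1*, *Cxcl12*, *Dcaf12l1*, *Plat*, *Itgb8*, *Scg5*, *Rgs2* and *Dtna*. *Spon1*, a floor plate adhesion protein, stood at 0.345 and 7.6 (75 and 1620 fragments), *Slc17a6*, a vesicular glutamate transporter, at 0.268 and 5.71 and *Igfbp5*, a binding protein of insulin-like growth factors, at 0.902 and 8.48. *Cxcl12*, a chemokine that guides migrating cells, stood at 3.72 and 26.3. *Snora26*, a small nucleolar RNA, stood at 1.64 and 14.7, and it lay inside the 2-fold line against F1G4 WT cells, where it stood at 8.13. Of 51 small nucleolar RNAs examined, whose short length makes FPKM less certain, 14 were higher and 4 lower, with a median of 0.36.

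Day 1 values of the same lines are in a separate table, normalized on its own, from other samples of the same lines. There 239 of 11232 genes were lower and 239 higher, 2.13% in each direction. Of the 335 genes lower on day 2, 99 were lower on day 1 as well, 29.6% of the day 2 list and 41.4% of the day 1 list. Of the 257 higher genes 59 were higher on day 1, 23% of the day 2 list and 24.7% of the day 1 list. Without the minimum on day 1, 113 of the 335 lower genes (33.7%) were lower there, beside 1.65% of all genes examined on day 2. Of the 257 higher genes 70 (27.2%) were then higher on day 1, beside 1.83% of all. The median day 1 ratio was −0.73 for the genes lower on day 2 and 0.60 for those higher, beside −0.00 for all. Among BMP targets 11 of the same 14 were lower on day 1 with a median of −2.33, and *Id1* had a lower ratio on day 1 (−5.11) than on day 2. The nascent mesoderm list had a median of −1.50 on day 1 and −3.56 on day 2, and the WNT ligands −1.24 and −2.45. *Eomes* was at 2.35 (WT) and 0.767 (KO) on day 1 and at 24.8 and 1.73 on day 2.

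The F1G4 time course, which shares no sample with the *Smad4* lines, shows how these genes behave in unmodified cells. From day 1 to day 2, 177 of the 335 lower genes (52.8%) were more than 2-fold higher on the later day in F1G4 WT cells and 32 lower, where 6.58% of all examined genes were higher and 2.59% lower. Of the 257 higher genes 62 (24.1%) were lower and 23 higher on the later day. Their median log2 ratio over this day was 1.06 for the lower genes, −0.36 for the higher genes and 0.00 for all. From day 2 to day 3, 89 of the genes lower in KO were higher on the later day and 50 lower, and of the genes higher in KO 42 were higher and 52 lower, beside 3.8% and 3.84% of all. In F1G4 WT cells *Pax6* stood at 0.481, 0.101 and 0.0469 on days 1 to 3, and *Sox2* at 104, 21.5 and 20.4.

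**Figure D5:**
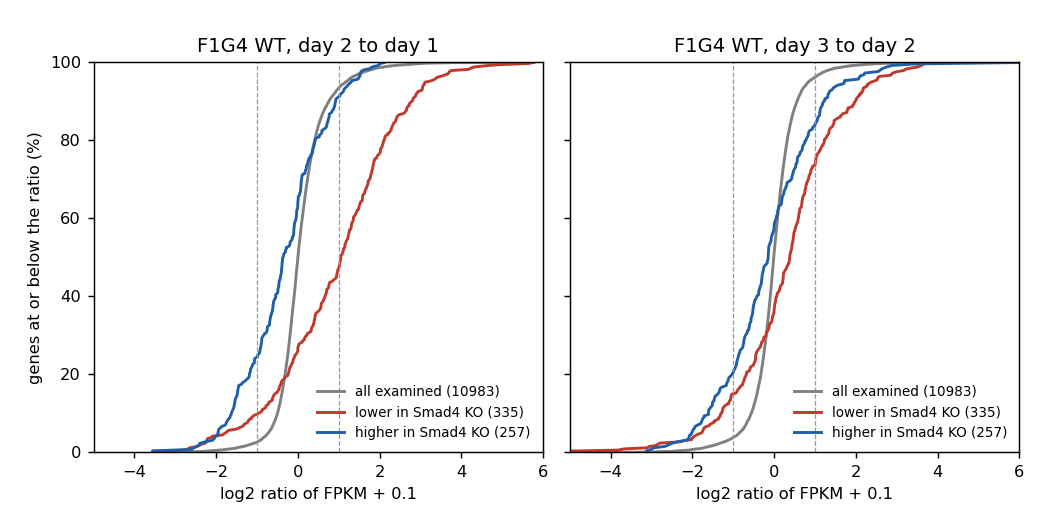
Cumulative share of genes (y axis, %) by their log2 ratio of FPKM + 0.1 (x axis) in F1G4 WT cells between days 1 and 2 (left) and days 2 and 3 (right), for all examined genes (grey, 10983 with a value), the 335 genes lower in *Smad4* KO on day 2 (red) and the 257 higher (blue). Dashed lines mark 2-fold differences. The red curve lies to the right of the grey one between days 1 and 2, where 52.8% of its genes are beyond the upper line.

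With F1G4 WT cells, scaled to the median of the line, in place of its own WT, 243 of the 335 lower genes stayed below −1 and 322 below 0. Of the 257 higher genes 179 stayed above 1 and 246 above 0. The KO values are the ones by which these genes were chosen, so this is not an independent check. Of all 11216 genes that passed the minimum with F1G4 cells as WT, 646 were lower and 446 higher. Of the list members among the 10999 examined genes, 12 of 14 BMP targets were lower against F1G4 WT and 0 higher. Of 19 nascent mesoderm genes 17 were lower and 1 higher, and of 17 neural genes 16 were higher and 1 lower. *Tdgf1* differed between the WT lines themselves, with 187 FPKM in this line and 569 in F1G4 cells, as did *Eomes* (24.8 and 9.5) and *Id1* (16.1 and 52.1). The KO value of each of these 3 genes lay below both WT values.

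*Eomes* KO and *Eomes*/*T* dKO cells on day 2, both derived from F1G4 cells and compared with the same F1G4 WT samples, give the values of the same genes where these T-box factors were lost. Of the 335 genes lower in *Smad4* KO, 95 (28.4%) were lower in *Eomes* KO, 22.4% of the 424 lower there, and 84 (25.1%) in the dKO, 18.8% of 448. Without the minimum in these 2 mutants, 99 (29.6%) and 88 (26.3%) of the 335 were lower, beside 3.55% and 3.85% of all genes examined here. Of the 257 higher genes 46 (17.9%) were higher in *Eomes* KO, 12.8% of 358, and 35 (13.6%) in the dKO, 9.38% of 373. Without the minimum there, 52 (20.2%) and 40 (15.6%) of the 257 were higher, beside 2.25% and 2.47% of all. Of the lower genes 189 lay inside the 2-fold line in both.

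The ligands *Nodal* and *Wnt3* and the co-receptor gene *Tdgf1* were close to or above F1G4 WT there. *Nodal* stood at 26.3 FPKM in *Eomes* KO and 24.8 in the dKO, *Wnt3* at 13.5 and 12.4, *Wnt8a* at 25.5 and 32.8 and *Tdgf1* at 1051 and 1129. The 14 BMP targets had medians of 0.36 and 0.42 there, with *Id1* at 105 and 101. *Fgf8* (2.38 and 3.48), *Sp5* (0.606 and 0.521) and *Apln* (0.415 and 0.384) were below their F1G4 WT values in both lines. *T* stood at 22.3 in *Eomes* KO. *Nanog* stood at 122 and 124 in these lines, against 26.8 in *Smad4* KO. *Pax6* (4.54 and 4.23) and *Sox1* (7.17 and 5.17) were above WT in all 3 mutants, beside 0.101 and 0.202 in F1G4 WT. *Sox2* stood at 51.6 in *Eomes* KO and 42.1 in the dKO beside 21.5 in F1G4 WT, log2 ratios of 1.27 and 0.98, where the ratio in *Smad4* KO was 1.76. *Otx2* (17.6 and 14.6) had log2 ratios of −0.12 and −0.39 and *Slc35d3* (0.591 and 0.475) of 0.52 and 0.25 to F1G4 WT, beside 1.82 and 3.65 in *Smad4* KO. The difference between the mutants was not tested, as the lines, tables and samples differ. The Y-linked genes *Ddx3y* and *Eif2s3y* also set these lines apart, at 31.6 and 75.3 FPKM in WT and 30.7 and 93.8 in KO of the *Smad4* line, at 3.17 and 8.65 in F1G4 WT and at or below 0.105 in *Eomes* KO, and the part of this in the values above was not tested.

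Markers of other cell types were read as a check on the samples. Of 15 fibroblast markers, which feeder cells would bring, 4 passed the minimum. *Col3a1*, *Lum* and *Postn* were at or below 0.0988 FPKM in both columns, *Acta2* and *Tagln* did not differ, and the summed level of the list was 165.3 in WT and 165.5 in KO. *Dcn*, decorin, was listed at 0 in WT and stood at 2.03 in KO, with no fold given against 0. Of 15 blood and endothelial genes 4 passed the minimum, and of these 2 were higher in KO and 0 lower, beside 2.34% and 3.05% of all examined genes. Against F1G4 WT cells 0 of the 4 were higher and 1 was lower, and with a pseudocount of 1 in place of 0.1 there were 0 higher. The blood and endothelial list summed to 5.35 and 6.67, and *Tal1*, *Gata1* and *Cdh5* stayed at or below 0.247. Their part in the differences above was not tested. The RNA comes from whole cultures, so a lower share of mesodermal cells and less of their RNA per cell cannot be told apart.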

How the data were processed

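RNA-seq of the *Smad4* lines and of F1G4 cells was read from 5 deposited tables of FPKM values. According to the submitters' processing notes and the study's methods, the authors trimmed paired-end reads of strand-specific libraries with cutadapt 2.9, aligned them to mm10 with HISAT2 2.1.0, and computed the deposited FPKM with Cuffdiff 2.2.1 against RefSeq genes, with 1 pooled column per group. SAMtools 1.9 was also used. Fold changes and p-values of the authors were not used, and 0 columns of other samples were met. The study's legend describes the *Smad4* values of day 2 as averages of 2 replicates, while the labels give 1 sample per line and day, and with a single column per group no error and no test could be had.

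Genes with FPKM above 1 in either column were compared by the log2 ratio with 0.1 added, and called beyond a log2 ratio of 1 in either direction. Fragments were recovered from low FPKM values and RefSeq transcript lengths. A gene at 0 was set against 3 fragments. The genes named are *Smad4*, members of 34 lists past the threshold with the highest-expressed members inside it, the 15 lowest and highest ratios at 5 FPKM or more, and the genes the study names. Some genes are not reported here. Members and lists were chosen with earlier results of these data known. The lists are described by counts and medians beside all examined genes, with no set test. Promoter windows came from RefSeq (GRCm38.p6, the build mm10). The calculation was tested on simulated data. Scripts ran under Python 3.11.15 with pandas 2.3.3 and numpy 2.4.6, intervals came from scipy 1.17.1, and plots from matplotlib 3.10.9. The alternatives were other pseudocounts and FPKM minimums, rescaling to TPM, scaling to a median of 0 and F1G4 cells as WT.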

Additional observations from a re-analysis of the deposited data

Results flagged for a closer look

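Of the genes above 1 FPKM in either column on both days, 4 lay beyond the 2-fold line in opposite directions on day 1 and day 2, and these differences were not tested because each column is a single pooled value. *1700013H16Rik* had a log2 ratio of KO to WT of −1.48 on day 2 (4.94 FPKM in WT and 1.70 in KO) and 1.26 on day 1 (0.726 and 1.88). *Bcl11a*, a zinc finger repressor of the nervous system and blood, had a ratio of 1.19 on day 2 (1.20 and 2.88) and −1.86 on day 1 (1.98 and 0.476). *Dynlt1f*, a dynein light chain gene, had a ratio of −1.01 on day 2 (4.0 and 1.93) and 1.63 on day 1 (1.53 and 4.94), and it belongs to a family of near-identical copies among which reads can be split, with *Dynlt1c* at 4.5 and 6.85 on day 2. *Rsc1a1* had a ratio of −3.70 on day 2 (1.20 in WT and listed at 0 in KO), a value set by the pseudocount, and 1.39 on day 1 (1.57 and 4.26). Its whole length of 2154 bases lies within *Ddi2*, which on day 2 was at 24.6 (WT) and 23.5 (KO). Without the minimum on day 1, 3 of the lower and 3 of the higher genes were opposite, and the 2 further genes are *Lmx1b* (log2 ratios of 4.00 on day 2 and −1.26 on day 1, with 0.139 FPKM in WT and 0 in KO on day 1) and *Ctnna2*, alpha-catenin of neurons (1.34 and −1.30, with 0.941 and 0.323 on day 1).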

How the results depend on the processing

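The direction was the same in 343 alternative values of 50 named genes, with 0 reversed, and 341 stayed on the same side of the 2-fold line. Another minimum leaves a ratio as it is, so the 44 values at FPKM above 5 and the 50 with no minimum could not differ. Most of the 50 genes were chosen for extreme ratios or as the study's own hits, so these counts are not independent evidence. *Mixl1* came to −0.98 with a pseudocount of 1 and *Snora26* to 0.87 with F1G4 cells as WT. The counts of lower and higher genes were 203 and 127 with a pseudocount of 1, 353 and 281 with 0.01, 147 and 103 at FPKM above 5 (of 7716 genes), and 712 and 576 with no minimum (of 24538). They were 495 and 413 after rescaling to TPM (of 12238), 330 and 263 after scaling to a median of 0, and 646 and 446 with F1G4 cells as WT (of 11216). Fewer or more genes pass under another minimum by construction. A larger pseudocount likewise brings ratios nearer to 0, and a smaller one takes them further away. Rescaling to TPM raised the values in both columns while the minimum and the pseudocount stayed the same, so more genes passed. For F1G4 cells as WT and for scaling to a median of 0 the cause was not tested.

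Among the lists, WNT targets had 5 lower genes with a pseudocount of 1 and 3 at FPKM above 5. At FPKM above 5, BMP targets had 4 lower genes, WNT ligands 3, nascent mesoderm genes 10 and naive genes 6. With no minimum BMP targets had 17 lower genes. With F1G4 cells as WT, 16 neural and 13 formative genes were higher. No paired analysis was possible because each column pools its group and the groups hold a single value. Leaving out a replicate was not possible for the same reason. Low genes are limited by counting, as *Mixl1* rests on 4 fragments and *Evx1* on 1 in KO.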

Other observations

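The genes in this section were chosen after their values were seen, and their values are descriptions. Some neuronal genes lay above WT in *Smad4* KO cells on day 2 and others below. Of those above, *Elavl3*, a neuronal RNA-binding protein, stood at 0.943 and 2.74 and *Syt11*, a synaptotagmin, at 3.96 and 10.6. *Lmx1b*, a homeobox factor of the midbrain, was listed at 0 in WT and stood at 1.50 in KO, at least 94.4-fold higher against a floor of 3 fragments in WT, but on day 1 it was at 0.139 in WT and listed at 0 in KO. The neurofilament genes were lower than in the WT of the same line, with *Nefl* at 193 and 21.9 and *Nefm* at 8.17 and 3.37. *Nefl* also differed in *Eomes* KO cells, at 9.3 beside 93.1 in their F1G4 WT. *Nefm* went the other way, at 1.88 in *Eomes* KO beside 1.02 in the same F1G4 WT, which also lies below its value in *Smad4* KO.

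Genes of retinoic acid handling and of metal transport stood apart as well. *Crabp2*, a retinoic acid binding protein, was at 23.4 FPKM in WT and 91.9 in KO, and *Cyp26a1*, which breaks retinoic acid down, at 0.399 and 3.2, while *Dhrs3*, which limits its synthesis, was at 3.29 and 0.977. The metallothioneins *Mt1* and *Mt2*, whose sequences are similar, were at 80.4 and 188 and at 81.8 and 190. In F1G4 WT cells on day 2 *Mt1* stood at 176 and *Mt2* at 143, nearer to the KO values than to the WT of this line. The metal transporters *Slc39a8* and *Slc39a14* were at 10.3 and 30.9 and at 4.4 and 17.1.

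WNT receptors divided. *Fzd10* stood at 14.2 FPKM in WT and 1.39 in KO, *Ror2* at 4.46 and 0.78 and *Porcn*, needed for the secretion of WNT ligands, at 1.39 and 0.261, whereas *Fzd7* stood at 21.9 and 46.5 and *Fzd8* at 1.05 and 2.73. The TGF-β pathway genes *Pmepa1* and *Tgfbr3* stood at 4.31 and 0.543 and at 3.89 and 0.737. *Tgfbr3* was at 0.85 in F1G4 WT cells on day 2, close to its KO value, and *Pmepa1* at 3.59. Of the stress response, *Ass1*, *Ddit3*, *Trib3* and *Chac1* had log2 ratios of −2.64, −1.25, −1.54 and −1.81, and the interferon-related *Gbp2* and *Erap1* ratios of −1.83 and −2.36.

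On the X chromosome 36 of 401 examined genes were lower in KO (8.98%) and 16 higher (3.99%), beside 2.84% and 2.31% on the autosomes, where the share lower ranged from 1.91% to 4.58%. The *Xlr3a* and *Xlr3b* genes, which are near-identical so that their reads can be split, were at 10.8 and 1.23 and at 3.44 and 0.251, and *Xlr4a* was at 2.88 in WT and listed at 0 in KO, at least 39.6-fold lower. The same genes were low in KO on day 1, with *Xlr3a* at 14.7 in WT and 0.915 in KO, and in F1G4 WT cells on day 2 *Xlr3a* stood at 0.0464. *Rhox6* and *Rhox9*, also similar to each other, were at 18.7 and 3.25 and at 11.0 and 2.4. In the *Snrpn* region on chromosome 7, *Snhg14* was at 1.55 and 5.07 and *Mkrn3* at 1.49 and 3.15, while *Ube3a* was at 58.1 and 58.4. *Rps27* was at 44.1 and 4.47 next to its near-identical copy *Rps27rt* at 628 and 668, and their sum was 672 and 673.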
